A study of Mus musculus with 14 samples.

Results

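Genes for the synthesis of retinoic acid, for its retinaldehyde reductase and for its nuclear receptors were examined in fetal mouse hearts, in dissected tissue of the epicardium and subepicardium. The 9 genes chosen by name were Aldh1a1, Aldh1a2, Rara, Rarb, Rarg, Rxra, Crabp1, Crabp2 and Dhrs3. Of these, 7 were found among the 15894 genes of the expression table, and Crabp1 and Crabp2 were not analysed here. RNA sequencing had been done on 14 libraries, each from a pool of 2 hearts at E16.5, and the study compared the ventral with the dorsal side of the heart and female with male fetuses. There were 3 female ventral and 3 female dorsal libraries (numbers 1 to 3), 4 male ventral libraries (numbers 4 to 7) and 3 male dorsal libraries (numbers 4 to 6). A further male library, number 7, is called dorsal by its title and source but ventral by the tissue field, so it entered no main test. All fetuses carried the genotype Tbx18Cre according to the sample labels, a Cre recombinase under control of an epicardial gene, whereas the paper calls them wild type; no group had been treated. No number was shared between female and male libraries, and whether the sexes were prepared together is not given, so a difference of preparation and one of sex cannot be told apart. The labels give pools of dissected epicardia from at least 3 litters, and the cell types within a pool were not separated.

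Retinoic acid is made from vitamin A by successive oxidation steps. Retinol is first oxidised to retinaldehyde, which Dhrs3 can reduce back to retinol, and retinaldehyde dehydrogenases such as Aldh1a2 and Aldh1a1 then oxidise retinaldehyde irreversibly to retinoic acid. Retinoic acid binds the receptors Rara, Rarb and Rarg, which act on DNA as partners of retinoid X receptors such as Rxra. The epicardium is a known site of Aldh1a2 expression in the fetal heart, and Rarb is a classical target gene of retinoic acid, through a repeated receptor binding motif beside its start site.

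That motif is shown here because Rarb was the member called in the main test of the difference in regional change between the sexes. The promoter sequences of RefSeq (assembly GRCm38.p6; 250 bases before to 50 after each start) were searched on both strands for the receptor core motif AGGTCA and for its variant forms AGTTCA together with GGGTCA as well as GGTTCA, each followed by a further one in the same direction with 1, 2 or 5 bases between them. Promoters were found for the 7 analysed members, and the Rarb promoter was the only one of them that held such a repeat, with 5 bases between its cores. It lay 53 to 37 bases before the RefSeq start of Rarb, on the minus strand. In the GENCODE M21 annotation the same bases fall inside the first exon of 2 Rarb transcripts that start further upstream, where they are untranslated. A repeat with 5 bases between was present in 32 of the 32851 RefSeq promoters (0.097%), with 1 base in 0.222% and with 2 bases in 0.268%. The Rarb site is printed 5′ to 3′ on the strand of the gene with the cores in capitals, followed by the corresponding sites of Prokr2, a G-protein-coupled receptor gene, and Blvrb, a biliverdin reductase gene. These other genes were chosen after their values were seen, as the promoters of this kind whose genes also differed between regions in female hearts; in Blvrb the repeat is on the opposite strand, so its letters are the reverse complement.
Rarb, chr14:16575507-16575535, minus strand: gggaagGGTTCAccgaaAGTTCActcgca
Prokr2, chr2:132385569-132385597, minus strand: ctgctgAGGTCAcaacgGGTTCAagagct
Blvrb, chr7:27452393-27452421, plus strand: aaccttTGAACTggcttTGAACTcataga
A match of letters describes the sequence and is no measurement of binding.

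Expression was given as normalized CPM, that is, read counts scaled to a common effective library size. Reads on the listed genes numbered from 13918995 to 25221314 per library, and 3 reads corresponded to 0.135 to 0.253 normalized CPM. Markers of the labelled tissue were present, since all 10 epicardial genes (Wt1, Tbx18, Tcf21, Upk3b, Upk1b, Msln, Sema3d, Lrrn4, Krt8 and Krt19) were listed. Their summed level was 1795 to 2897 normalized CPM in female ventral and 355 to 661 in female dorsal libraries. In male libraries it was 2132 to 6181 ventrally and 1679 to 4453 dorsally. In females 9 of 10 were higher ventrally, where 27.8% of all genes tested were called. In males none of 10 was called, where 0% of all genes tested were called. When the regional change was tested between the sexes none of 10 was called, against 2.73% of all genes. All libraries also held muscle RNA, with 19070 to 50190 normalized CPM over 10 markers of ventricular cardiomyocytes. Female dorsal library 1 stood apart, with 12460 normalized CPM over 4 atrial genes against 474 to 1992 in the other 13 libraries, so results of the female comparison are also given without it. Of 6 lymphatic endothelial markers 4 were higher ventrally in females, of 6 smooth muscle markers 3 were higher dorsally and 1 ventrally, none of 6 blood endothelial markers was called, and no lung epithelial marker was in the table. In bulk tissue, fewer cells of a type and less RNA per cell cannot be told apart.

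Expressed per kilobase of exon, so that genes can be set against each other, Dhrs3 had the highest mean level over the 13 libraries of known region (76.0 normalized CPM per kb), followed by Aldh1a2 (32.2), Aldh1a1 (4.67), Rara (4.09), Rxra (3.63), Rarb (3.15) and Rarg (1.09). Dhrs3 stood above Aldh1a2, Aldh1a2 above Aldh1a1 and Rarb above Rarg in 13 of 13 libraries. The order within the middle of the range was not stable: Aldh1a1 exceeded Rara in 7 of 13 libraries, Rara exceeded Rxra in 9 and Rxra exceeded Rarb in 6. The place of Aldh1a1 also varied with the group. In the female dorsal libraries its mean of 1.41 normalized CPM per kb lay below those of Rara (3.72), Rarb (3.41) and Rxra (2.33), and in the female ventral libraries its mean of 5.49 lay below that of Rxra (5.89).

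The comparison of regions used limma, with log2(normalized CPM + 1) as a scale that understates the change of low genes, and calls were made where the p adjusted by Benjamini-Hochberg over the whole table fell under 0.05. Changes are given as log2 change ± standard error (SE). In female hearts 4 of the 7 members were called, where 27.8% of all 14411 genes tested were called: Aldh1a2, Dhrs3 and Rxra were higher ventrally and Rarb was higher dorsally. Without female dorsal library 1, 3 of the 7 were called, as Dhrs3 lost its call. Leaving out 1 female library gave 2158 to 3845 called genes in the whole table, beside 4007 with every library. With all libraries, the median log2 change of the members was 1.09, beside 0.01 over all genes. In male hearts none of the 7 was called, 1 had an unadjusted p under 0.05, and 0% of 14917 genes tested were called by limma (2083 with an unadjusted p under 0.05; none by a quasi-likelihood count test with edgeR). Over both sexes together, with sex as a covariate, 2 of 7 were called, Aldh1a2 and Rxra, against 18.9% of all genes. When the regional change of males was tested against that of females 1 of 7 was called, Rarb, against 2.73% of all genes. In the comparison of the sexes with region as a covariate 1 of 7 was called, Rarg, against 10.9%.

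**Figure D1:**
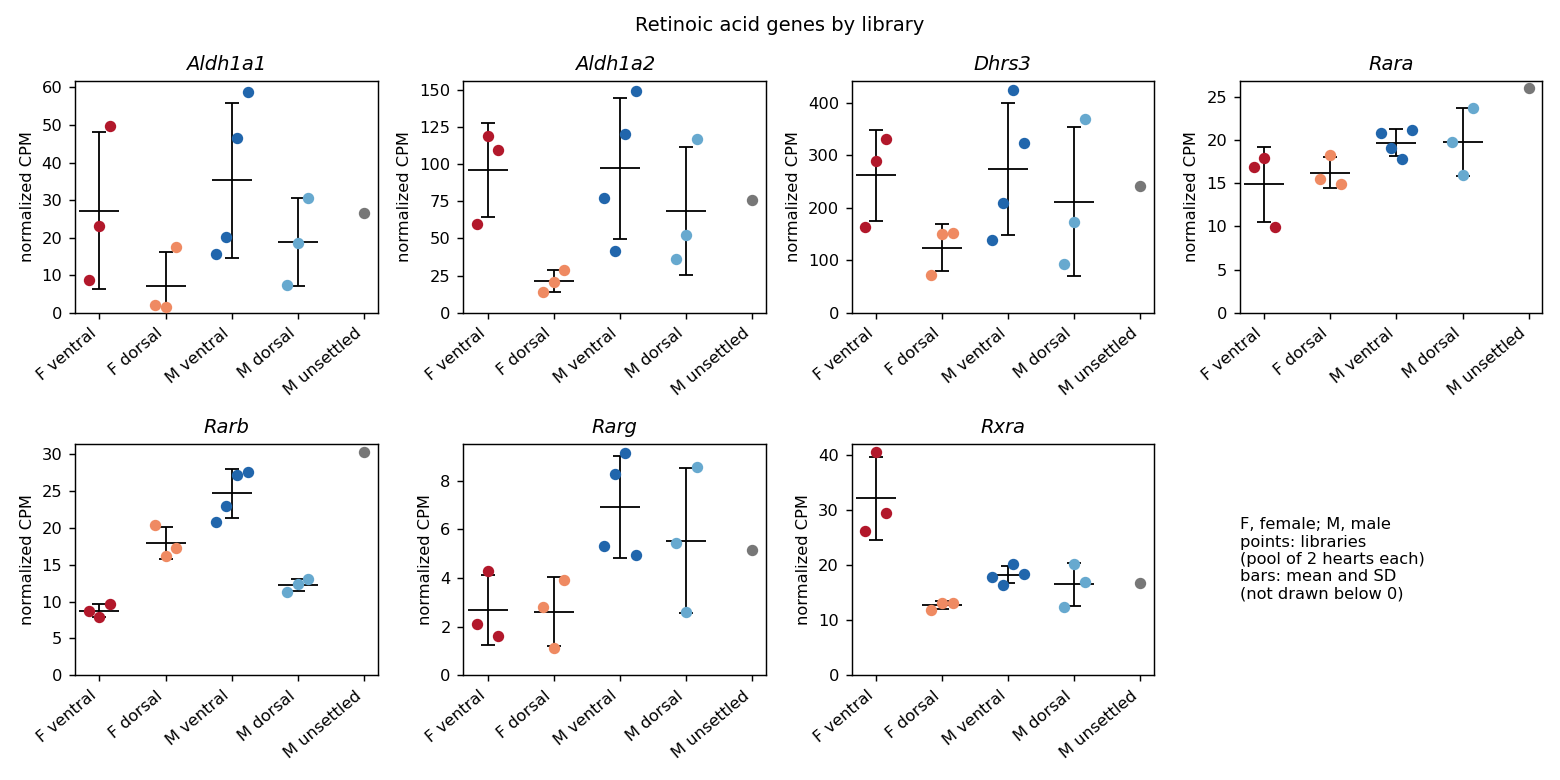
Normalized CPM (linear axes from 0) of the 7 members in every library, in columns for female ventral, female dorsal, male ventral, male dorsal and the male library of unsettled region; points are pools of 2 hearts and bars give the mean and SD. The female ventral and dorsal points of Aldh1a2, Dhrs3, Rarb and Rxra do not overlap, and the male ventral points of Rarb (20.8 to 27.6) lie above the male dorsal ones (11.3 to 13.01). The share of all genes whose points separate in this way is not given.

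**Figure D2:**
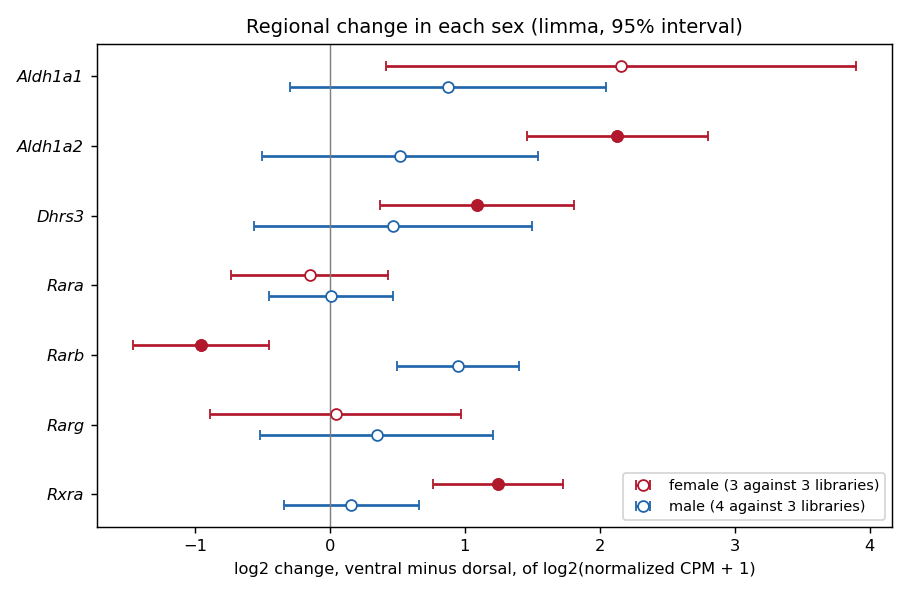
Log2 change, ventral minus dorsal, on the log2(normalized CPM + 1) scale for each member in female (3 against 3 libraries, red) and male hearts (4 against 3 libraries, blue), with 95% intervals from limma; filled points were called. The female and male intervals of Rarb lie on opposite sides of 0, those of Rxra do not overlap, and the remaining members have overlapping intervals.

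Aldh1a2 (ENSMUSG00000013584; chromosome 9 of GRCm38, 71215789 to 71296243, plus strand) encodes the main retinaldehyde dehydrogenase of the epicardium. Its level was 60.0, 119 and 109 normalized CPM in female ventral libraries 1 to 3 and 14.1, 20.7 and 28.6 in the dorsal ones, so the lowest ventral library stood above the highest dorsal one. Mean levels were 96.2 ± 31.7 and 21.1 ± 7.29 (SD, n = 3 each), and the log2 change of 2.13 ± 0.300 (SE; limma, adjusted p = 0.00151) corresponds to a 4.37-fold higher ventral level. Within each number the ventral library exceeded the dorsal library, by 4.27, 5.76 and 3.83 times. The call was kept when any one of the 6 libraries was left out (log2 change 1.88 to 2.44; 1.88 without female dorsal library 1, adjusted p = 0.00435).

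The male libraries showed no such separation. Aldh1a2 measured 77.3, 41.7, 121 and 150 normalized CPM in male ventral libraries 4 to 7 and 36.0, 52.4 and 117 in male dorsal libraries 4 to 6, with overlapping groups. The log2 change was 0.52 ± 0.460 (SE, adjusted p = 0.619), with a 95% interval from -0.50 to 1.55, and the ventral library was 2.15, 0.797 and 1.03 times the dorsal one in numbers 4, 5 and 6. A smaller regional change in males than in females was not called (difference of -1.61 on the log2 scale, standard error 0.636, adjusted p = 0.229), but it was called once libraries of one number were paired in a block (-1.86, adjusted p = 0.00359). Over both sexes the log2 change was 1.27 (adjusted p = 0.0282; 0.0367 with the block). That call was lost without female dorsal library 1 (adjusted p = 0.0620) or 2 (0.0674), female ventral library 2 (0.0718) or 3 (0.0680), or male dorsal library 4 (0.0576).

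Aldh1a1 (ENSMUSG00000053279; chromosome 19, 20492715 to 20643465, plus strand), a second retinaldehyde dehydrogenase, varied more between pools than Aldh1a2. It measured 8.58, 23.0 and 49.8 normalized CPM in the female ventral libraries and 1.96, 1.39 and 17.5 in the dorsal ones, where 42, 25 and 350 reads were recovered. The groups overlapped, since dorsal library 3 exceeded ventral library 1. The log2 change of 2.16 ± 0.780 (SE) was as large as that of Aldh1a2 but was not called (adjusted p = 0.0646). In the blocked fit it was called (adjusted p = 0.00200), and each ventral library exceeded the dorsal library of its number, by 4.37, 16.5 and 2.85 times. It was also called without female dorsal library 3 (3.09, adjusted p = 0.00807) or female ventral library 1 (2.78, adjusted p = 0.0316), and it was not called without female dorsal library 1 (1.77, adjusted p = 0.166).

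In male hearts Aldh1a1 measured 15.7, 20.02, 46.5 and 58.7 ventrally and 7.30, 18.5 and 30.6 dorsally. These groups overlapped as well, with a log2 change of 0.88 ± 0.525 (SE, adjusted p = 0.464). Over both sexes the log2 change was 1.48 (adjusted p = 0.0667; with the block 1.37, adjusted p = 0.0299), and it was called without female dorsal library 3, male ventral library 4 or 5, or male dorsal library 6 (adjusted p from 0.0372 to 0.0499). Of the 60-base windows of Aldh1a1, 2.11% also occur in its neighbouring paralog Aldh1a7, so a small share of its reads could belong to either gene.

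Dhrs3 (ENSMUSG00000066026; chromosome 4, 144892827 to 144928209, plus strand), the reductase that returns retinaldehyde to retinol and is itself known to be induced by retinoic acid, was the most abundant member. It measured 164, 290 and 332 normalized CPM in the female ventral libraries and 71.5, 150 and 151 in the female dorsal ones. The lowest ventral value lay just above the highest dorsal value, and the log2 change was 1.09 ± 0.323 (SE, adjusted p = 0.0321), a 2.13-fold higher ventral level. The ratio within each number was steadier than the levels, at 2.29, 1.94 and 2.20. The call was lost without female dorsal library 1 (0.74, adjusted p = 0.0763), female ventral library 2 (0.99, adjusted p = 0.115) or female ventral library 3 (0.89, adjusted p = 0.111).

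In male hearts Dhrs3 reached 138, 210, 424 and 325 normalized CPM ventrally and 93.1, 173 and 370 dorsally. The ventral library was the higher one in each of numbers 4 to 6 (ratios 1.48, 1.22 and 1.15), but the groups overlapped over most of their range and the log2 change of 0.47 ± 0.463 (SE) was not called (adjusted p = 0.657). Neither the change over both sexes (0.76, adjusted p = 0.115) nor the difference between the sexes (-0.62, adjusted p = 0.703) was called with all libraries and no block; with the block both were (0.72, adjusted p = 0.0228, and -0.74, adjusted p = 0.0418). The change over both sexes was also called without male dorsal library 6 (1.04, adjusted p = 0.0241) or male ventral library 4 (0.92, adjusted p = 0.0487).

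Rarb (ENSMUSG00000017491; chromosome 14, 16430839 to 16819156, minus strand), the retinoic acid receptor gene that carries the repeat printed above, had opposite regional patterns in females and males. The female ventral libraries held 8.74, 7.92 and 9.65 normalized CPM and the female dorsal libraries 20.4, 16.1 and 17.3. The male ventral libraries held 20.8, 23.0, 27.2 and 27.6 and the male dorsal libraries 11.3, 12.4 and 13.01. Groups did not overlap in either sex, and the spread within each group was small beside the gap, with means of 8.77 ± 0.866 and 17.9 ± 2.20 in females and 24.7 ± 3.29 and 12.2 ± 0.869 in males. The share of all genes whose groups separate in this way is not given here, so separation alone does not set Rarb apart. Read numbers behind these values ran from 109 to 681 per library.

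The female log2 change of Rarb was -0.95 ± 0.225 (SE, adjusted p = 0.0132), a 1.94-fold higher dorsal level, and it was called without each library in turn (-1.02 to -0.86; -0.86 without female dorsal library 1, adjusted p = 0.0494). The male log2 change was 0.95 ± 0.203 (SE, 95% interval 0.50 to 1.40, unadjusted p = 8.52e-04) and did not pass over all genes (adjusted p = 0.264; 0.114 with the block). Tested directly, the regional change differed between the sexes by 1.90 on the log2 scale (standard error 0.275, adjusted p = 0.00135). This difference was called under every alternative that was run, with an adjusted p from 7.28e-04 to 0.0348, the highest when the library of unsettled region (30.3 normalized CPM) was taken as dorsal. In the same 4-group fit Rarb was higher in male than in female ventral libraries by 1.39 (adjusted p = 7.46e-04; 8.45% of genes were called there), and in the dorsal libraries its difference of -0.51 was not called (adjusted p = 0.166; 7.16% called). Over both sexes the opposite changes left a log2 change of 0.06 (adjusted p = 0.896).

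Reads of Rarb cannot all be assigned with certainty. Its 3′ end overlaps that of Top2b, a topoisomerase gene on the opposite strand, and 33.3% of the 60-base windows of Rarb also occur in Top2b or in the antisense gene Gm48162; the library kit named in the labels does not mark strand, so reads of the overlap cannot be told apart. Top2b, given here after its values were seen, measured 89.9 to 118 normalized CPM in female ventral, 121 to 133 in female dorsal, 34.6 to 69.6 in male ventral and 47.0 to 51.8 in male dorsal libraries. Its female log2 change was -0.31 (adjusted p = 0.131) and its regional change differed between the sexes by 0.31 (adjusted p = 0.636), and it was lower in males by 1.19 on the log2 scale (adjusted p = 9.85e-05). In females, Top2b was higher in every dorsal library than in any ventral one, the same direction as Rarb. In males, where Rarb was higher in every ventral library, the ventral and dorsal values of Top2b overlapped. The part of shared reads in the Rarb result was not tested.

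**Figure D3:**
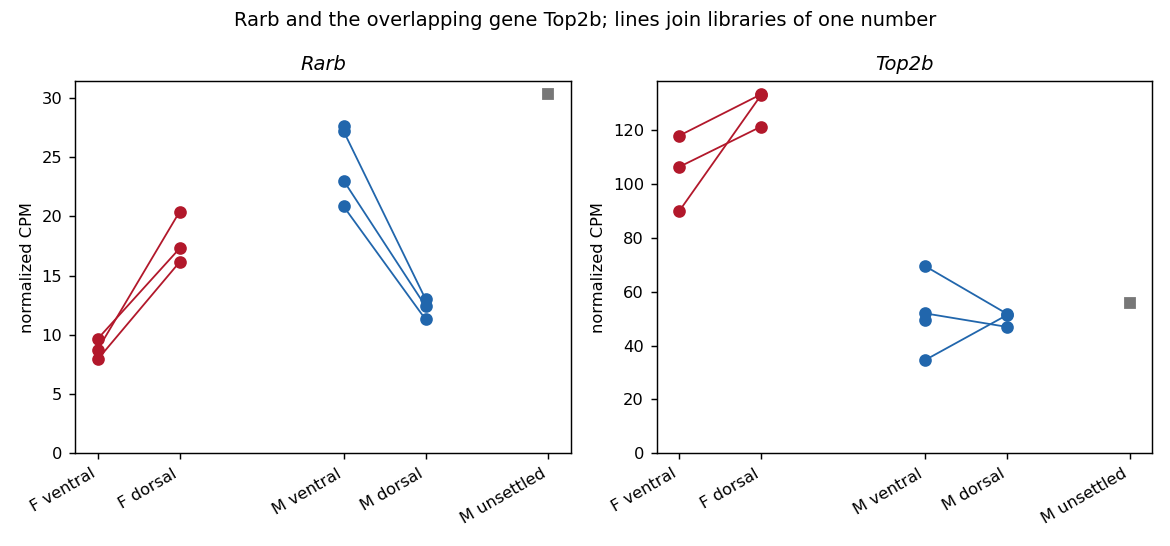
Normalized CPM (linear axes from 0) of Rarb on the left and of the overlapping gene Top2b on the right; lines join the ventral and dorsal library of one number, females in red and males in blue, and the grey square is the male library of unsettled region. All 3 female lines of Rarb run up from ventral to dorsal and all 3 male lines run down. The female lines of Top2b also run up, and Top2b is lower in males on both sides.

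Rxra (ENSMUSG00000015846; chromosome 2, 27676440 to 27762957, plus strand), the retinoid X receptor that pairs with the retinoic acid receptors and with many other nuclear receptors, was highest in the female ventral libraries. These held 26.3, 40.7 and 29.5 normalized CPM, against 11.8, 13.1 and 13.2 in the female dorsal libraries. The log2 change of 1.25 ± 0.215 (SE, adjusted p = 0.00342), a 2.38-fold higher ventral level, was called without each library in turn (1.07 to 1.38; 1.202 without female dorsal library 1, adjusted p = 0.0109). All 7 male libraries of known region, at 17.9, 16.5, 20.3 and 18.4 ventrally and 12.4, 20.2 and 17.05 dorsally, fell below the lowest female ventral value and overlapped between sides (log2 change 0.16, standard error 0.225, adjusted p = 0.766).

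The regional change of Rxra was smaller in males by 1.09 on the log2 scale (-1.09, standard error 0.302), which did not pass over all genes (adjusted p = 0.0745; 0.0744 with the block). It passed when genes with a mean below 10 were left out (adjusted p = 0.0490), when the unsettled library was counted as dorsal (0.0458) or as ventral (0.0479), and without male dorsal library 4 (0.0421). Within the ventral libraries Rxra was lower in males (log2 change -0.76, adjusted p = 0.0339), and within the dorsal ones the change of 0.33 was not called (adjusted p = 0.474). The log2 change over both sexes, 0.67 (adjusted p = 0.0338), lost its call with the block (0.70, adjusted p = 0.0639), after correction for GC content and gene length (0.47, adjusted p = 0.0825) and without any one of the 6 female libraries, male dorsal library 4 or male ventral library 6 (adjusted p from 0.0511 to 0.0823).

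For the other 2 receptor genes no regional change passed the test. Rara (ENSMUSG00000037992; chromosome 11, 98927818 to 98974942, plus strand), the most widely expressed of the retinoic acid receptors, measured 16.9, 17.97 and 9.94 normalized CPM in the female ventral libraries and 15.5, 18.3 and 14.9 in the dorsal ones. It measured 20.8, 19.1, 17.9 and 21.2 in male ventral and 19.8, 15.9 and 23.7 in male dorsal libraries. Groups overlapped throughout, and the 95% intervals of the log2 change, -0.73 to 0.43 in females and -0.45 to 0.47 in males, give the range of change these libraries allow.

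Rarg (ENSMUSG00000001288; chromosome 15, 102234938 to 102257517, minus strand), known mainly from skin and cartilage, was the lowest member. The 3 female ventral libraries held 2.11, 4.30 and 1.61 normalized CPM, against 2.79, 1.12 and 3.92 in the female dorsal ones. Male ventral libraries held 5.29, 8.28, 9.12 and 4.96 and male dorsal libraries 5.43, 2.60 and 8.56. Male libraries were higher with 1 exception, since male dorsal library 5 lay within the female range. The log2 change between the sexes, 0.99 ± 0.291 (SE, adjusted p = 0.0396), was called in 10 of the 22 alternatives and not in the other 12; these include the fit with the libraries of one number averaged (adjusted p = 0.0552), the edgeR test (0.0583), correction for GC content and gene length (0.0910) and 8 of the 13 leave-one-out fits (0.0520 to 0.0959). Of the 10 epicardial markers 6 were also called higher in males in this comparison, where 10.9% of all genes were called. Regional changes of Rarg were 0.04 in females (adjusted p = 0.951) and 0.35 in males (adjusted p = 0.699).

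In male libraries the levels of 3 members moved with the level of the epicardial markers. The marker level of the male ventral and dorsal libraries overlapped there, so the relation is described over all 8 male libraries, that of unsettled region included. These libraries come in pairs of one number and are not independent, so no p is given. Between the mean log2 level of the 10 epicardial genes, which include no member, and the log2 level of Aldh1a1, Pearson's r was 0.956 and Spearman's rho 0.929. For Aldh1a2 r was 0.948 and rho 0.952, and for Dhrs3 r was 0.913 and rho 0.857. Without the 2 libraries farthest from the median marker level, r was 0.896, 0.922 and 0.923.

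The 4 receptor genes had r from 0.235 to 0.574 and rho from 0.19 (Rarg) to 0.714 (Rarb) over the same libraries. Without the 2 libraries farthest from the median marker level, their r was 0.272 (Rarb) to 0.68 (Rara). In females the ventral and dorsal libraries form separate clusters of 3 for this level, so no r over both is given and the relation could not be told apart from the regional difference. With the epicardial marker level as a covariate, no member was called in the female comparison (21 genes were called in all), and the log2 changes of Aldh1a2, Aldh1a1 and Dhrs3 were -0.22, -2.38 and -1.62; the marker levels of ventral and dorsal libraries do not overlap in those 6 libraries. With the same covariate the difference between the sexes in the regional change of Rarb was 2.06 (adjusted p = 0.00267). Fibroblast markers moved in the same way in females, where 27.8% of all genes tested were called. Of 8 such markers 6 were higher ventrally, with a summed level of 11840 to 22420 normalized CPM ventrally and 2988 to 4839 dorsally. Of 6 macrophage markers 5 were higher ventrally (130 to 262 against 44.6 to 79.5). The part of tissue composition in the regional changes was not tested beyond the covariate.

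**Figure D4:**
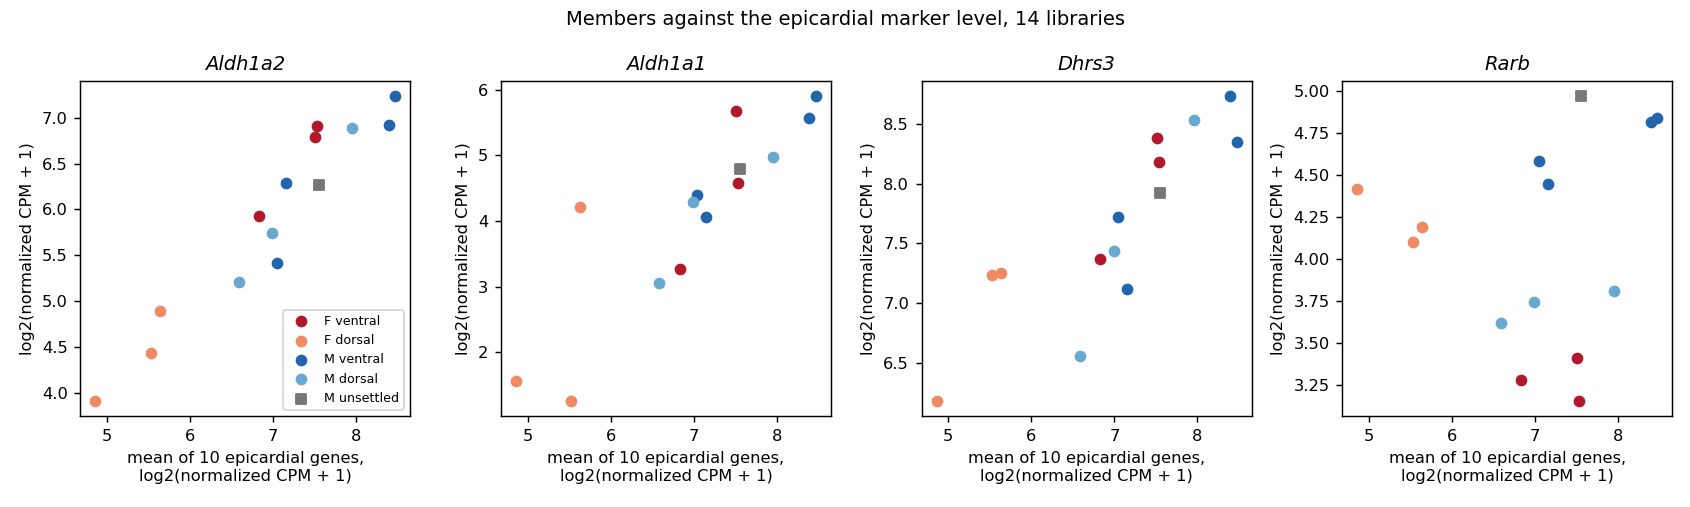
Log2(normalized CPM + 1) of Aldh1a2, Aldh1a1, Dhrs3 and Rarb against the mean log2 level of 10 epicardial marker genes in 14 libraries; colours give sex and region and the grey square is the library of unsettled region. Points of Aldh1a2, Aldh1a1 and Dhrs3 rise with the marker level, and the male points of Rarb are split by region over overlapping marker levels, while no other library is near the marker level of the female dorsal ones (4.86 to 5.63, the rest at 6.59 or above).

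The other genes of the pathway were taken from a list of 39, of which 25 were in the table. In female hearts 9 of the 23 tested were higher ventrally, 3 were higher dorsally and 11 were not called, where 27.8% of all genes tested were called, with a median log2 change of 0.56. Rbp4, the plasma carrier of retinol, was higher ventrally (17.1 ± 10.4 against 2.65 ± 1.39 normalized CPM; log2 change 2.24, adjusted p = 0.00580). Rbp7, a cellular retinol-binding protein, which is known from capillary endothelium, was higher dorsally (8.84 ± 3.002 against 31.5 ± 17.97; -1.64, adjusted p = 0.0107). Of the oxidoreductases, Rdh12 was higher ventrally (1.24, adjusted p = 0.0253), while Rdh14 (-0.76, adjusted p = 0.00884) and Adh5 (-0.43, adjusted p = 0.0378) were higher dorsally; 6 of 9 were not called. Rdh12 was low, at 0.225 to 1.12 normalized CPM in female dorsal and 2.38 to 3.43 in female ventral libraries.

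Delivery and partner genes were also higher ventrally in females. Fabp5, a fatty-acid-binding protein that can also carry retinoic acid, had a log2 change of 1.001 (adjusted p = 0.00482) and the partner receptor Rxrb one of 0.84 (adjusted p = 0.0232). Coregulators higher ventrally included the corepressors Ncor1 (0.56, adjusted p = 0.0151) and Nrip1 (1.35, adjusted p = 0.00305) and the coactivator Ncoa3 (0.87, adjusted p = 0.00799). Some of these calls did not hold throughout. After correction for GC content and gene length, Ncor1 (adjusted p = 0.221) and Adh5 (0.151) lost theirs, and Adh5 also lost it with the block (0.0584) and Rdh12 with edgeR (0.0627). Of the 12 genes of the list called in females, 11 were also called without female dorsal library 1, the exception being Rxrb (0.0563). The call of Rxrb was lost as well without female dorsal library 2 or 3 or female ventral library 2 (up to 0.0902), and that of Adh5 without any library but female dorsal library 1 (0.0562 to 0.133). Rdh12 lost its call without female ventral library 1 or 2 or female dorsal library 3 (0.0641 to 0.0857), and Ncor1 without library 2 of either side (0.0579 and 0.0592). With the epicardial marker level as a covariate none of the called genes named here was called in females.

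Aldh1a3, a further retinaldehyde dehydrogenase (3.21 ± 2.68 against 1.68 ± 0.344 normalized CPM in females), the retinol dehydrogenase Rdh10 (15.2 ± 4.39 against 9.14 ± 1.84) and Cyp26b1, which degrades retinoic acid (2.97 ± 2.91 against 1.11 ± 0.598), were not called in females (adjusted p = 0.434, 0.110 and 0.312) or males. Rxrg was low, at 0.02 to 3.17 normalized CPM. Cyp26a1, Cyp26c1 and Stra6 were not analysed here. In males 0 of 24 genes of the list were called. Over both sexes 5 of 25 were called higher ventrally, among them Fabp5, Ncor1 and Ncoa3, and 2 higher dorsally, Rbp7 and Adh5, where 18.9% of all genes were called. Of these, Ncor1, Ncoa3 and Rbp7 were called in 13 of 13 leave-one-out fits, whereas Fabp5 was not called in 9 of them (adjusted p up to 0.0857) and Adh5 was not called in 7 (up to 0.0822) or with the block (0.0760).

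Known targets of retinoic acid were taken from a list of 24, of which 15 were in the table. In females 3 of 13 tested were higher ventrally and 1 was higher dorsally, a share near the 27.8% of all genes, with a median log2 change of 0.36. Rarres2, the gene of the chemoattractant chemerin, measured 66.95 ± 6.70 normalized CPM dorsally and 489 ± 96.7 ventrally (log2 change 2.84, adjusted p = 7.51e-05), and Nrip1, named above, belongs to this list as well. Meis1, a homeobox gene, was higher dorsally (-0.57, adjusted p = 0.0241), and its relative Meis2 was called higher ventrally over both sexes (0.35, adjusted p = 0.0440) but not in females alone (adjusted p = 0.115). The call of Meis2 was lost with the block (0.32, adjusted p = 0.0991), with the unsettled library as ventral (0.31, adjusted p = 0.0795) and in 10 of 13 leave-one-out fits (up to 0.0983). Without female dorsal library 1, 3 of the 4 calls were kept and Meis1 lost its own (adjusted p = 0.0513), as it did without female dorsal library 2 (0.0788) or female ventral library 2 (0.0903). The regional change of Rarres2 was smaller in males (690 ± 303 ventrally against 399 ± 32.7 dorsally) by 2.16 on the log2 scale (-2.16, adjusted p = 0.00825). Hox genes of the list were low, at most 3.10 normalized CPM in any library of known region, and none was called in a regional comparison.

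**Figure D5:**
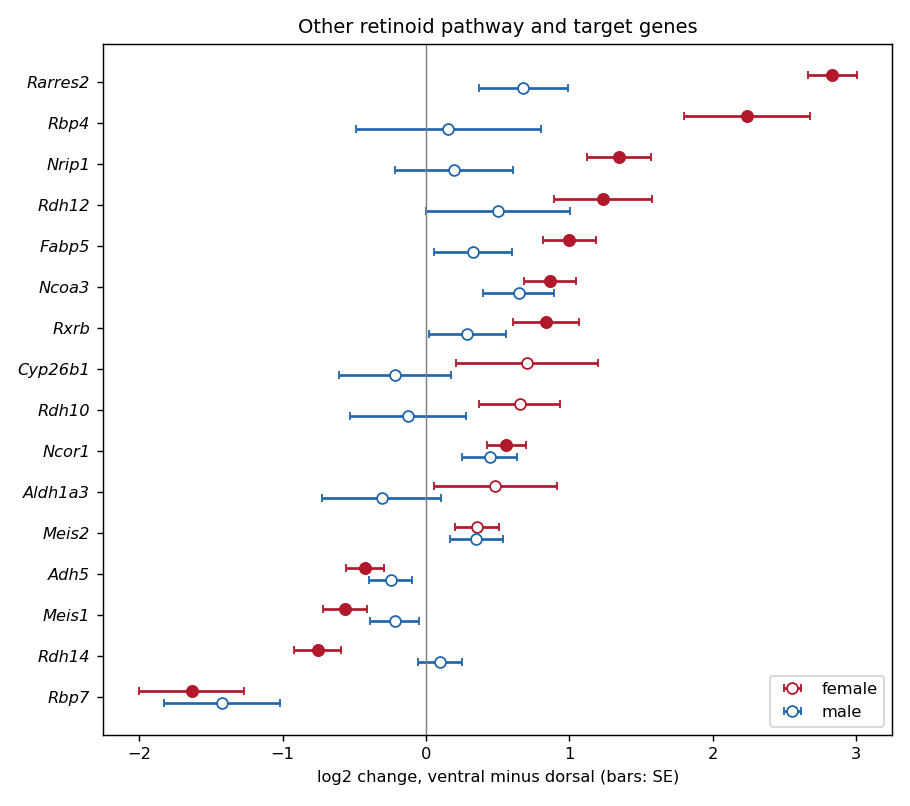
Log2 change, ventral minus dorsal, on the log2(normalized CPM + 1) scale of 16 further retinoid pathway and target genes in females (red) and males (blue); bars give standard errors from limma and filled points were called. Filled points are all female, from Rarres2 at 2.84 to Rbp7 at -1.64, and Rbp7 has a similar change in both sexes.

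Promoters with a direct repeat spaced by 5 bases belonged to 31 genes, of which 8 were tested. In females, where 27.8% of all genes were called, 2 of them were higher ventrally and 1 higher dorsally: Prokr2 had a log2 change of 2.66 (adjusted p = 0.00916), Blvrb 0.49 (adjusted p = 0.0499) and Rarb -0.95. In the comparison of the regional change between males and females only Rarb was called, where 2.73% of all genes were called. The motif was shown because of this call of Rarb, so the count says nothing about the repeat. The other tested genes of this kind had an adjusted p (limma) of 0.503 or above. The call of Blvrb was lost without any one of the 6 female libraries (adjusted p from 0.0746 to 0.145), with the block (0.0701), with median-of-ratios scaling (0.0559) and after correction for GC content and gene length (0.0791).

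The genes whose log2 levels were most like those of Aldh1a2 over the 13 libraries of known region, among 11345 genes with a mean of at least 5 normalized CPM, were Nupr1 (Pearson's r = 0.995), Cybrd1 (0.983), Gm20186 (0.980), Emp3 (0.976) and Fabp5 (0.976). For Aldh1a1 they were Itgbl1 (0.981), Fcgr3 (0.971), Mme (0.962), Tyrobp (0.957) and Fcer1g (0.956), of which Fcgr3, Tyrobp and Fcer1g are known from myeloid cells. These values describe libraries that differ in sex, region and depth, and the part of such differences in r was not tested.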

How the data were processed

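RNA of the epicardial and subepicardial layer, pooled from 2 hearts a library, was poly(A)-selected and sequenced as single reads of 60 bases. The authors trimmed adapters with Cutadapt, ran RSEM (1.3.1 in the submitters' processing notes) against GRCm38 transcripts and normalized with limma. The deposited values are a signal, here called normalized CPM; 100% of them were whole reads within 0.02 reads after an offset over an effective library size was removed, and columns sum to between 960113 and 1089818. Reads counted per library set the precision of low genes, and replicates are pools.

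Members and gene lists were chosen with earlier results of these data known. Fits were made in R 4.3.3 with limma 3.58.1 (lmFit, eBayes with trend) on log2(value + 1) for genes that reached 1 in 3 or more of the libraries fitted, two-sided, with Benjamini-Hochberg adjustment over all genes; the difference between the sexes came from a fit of 4 groups that share one spread. Genes named are the members, list genes called in a regional comparison, Aldh1a3, Cyp26a1, Cyp26b1, Cyp26c1, Rdh10, Stra6, Rxrb and Rxrg, and the 5 genes most correlated with Aldh1a2 and with Aldh1a1. Positions, exon lengths and shared 60-base windows came from GENCODE M21, where 15877 of the identifiers (99.9%) were found; promoters came from RefSeq. The fits were tested on simulated counts with the same spread for every gene and independent libraries, which the pools here need not share. Counts over a list include every gene tested, and some genes of the lists are not reported here by name.

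Whether equal numbers pair libraries was checked by correlating, across 15772 genes, how the ventral and the dorsal library of each number departed from their groups; r was 0.187, 0.169 and 0.27 for numbers 1 to 3 and 0.427, 0.175 and 0.351 for numbers 4 to 6. Libraries of different number were not correlated in this way, so these r values alone cannot show whether equal numbers pair libraries. The numbers come from the sample titles, and they were treated as pairing the libraries in the fits with a block. Also tried were 0.1 as pseudocount, all genes unfiltered, only genes with a mean from 10 up, median-of-ratios scaling, the edgeR 4.0.16 quasi-likelihood test on recovered reads, correction for GC content and gene length (natural splines with 5 degrees of freedom), the mean of the epicardial markers as a covariate, averaging of the libraries of one number, the library of unsettled region as dorsal or ventral, and leaving out each library.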

Additional observations from a re-analysis of the deposited data

Results flagged for a closer look

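The regional change of Rarb differed between female and male hearts by 1.90 on the log2 scale in the test of the difference itself (limma, adjusted p = 0.00135). One male library, whose labels disagree on its region, entered no main comparison, and each member was above the 3-read floor in it: Aldh1a1 at 26.6, Aldh1a2 at 75.8, Dhrs3 at 241, Rara at 26.1, Rarb at 30.3, Rarg at 5.16 and Rxra at 16.8 normalized CPM. Its values of Rara and Rarb were above those of all other libraries. No member had a sample far from the others in the group of 4 male ventral libraries; groups of 3 were not examined in this way.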

How the results depend on the processing

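The male count of members was 0 under every setting, with at most 76 genes called in the whole table, so its stability is uninformative. The number of members called stayed within 1.5 times of that reported under 13 of 14 alternatives in females, 17 of 17 in males, 12 of 23 over both sexes, 18 of 23 for the difference in regional change and 10 of 23 between the sexes. With the epicardial marker mean as a covariate it was 0 in females, 0 over both sexes and 0 between the sexes; after correction for GC content and gene length it was 1 over both sexes and 0 between the sexes. For the difference in regional change it was 2 with the filter on a mean of 10, 2 with the unsettled library as dorsal, 2 with it as ventral and 3 with the replicate block. Between the sexes it was 0 with edgeR, 0 with averaged numbers and 0 with the filter on a mean of 10, which drops Rarg. Leaving out one library gave 0 to 4 members over both sexes, 1 to 2 for the difference and 0 to 1 between the sexes. Beyond the calls given in the report, the paired block changed no other call of a member.

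The epicardial covariate turned the direction of many log2 changes. In females it gave Aldh1a1 -2.38, Aldh1a2 -0.222, Dhrs3 -1.62, Rara 0.159, Rarg -0.201, Rbp4 -0.31, Fabp5 -0.195, Aldh1a3 -0.438, Rdh10 -0.0855 and Prokr2 -1.41. In males it gave Aldh1a2 -0.0921, Dhrs3 -0.128 and Rara -0.0366, and over both sexes Aldh1a1 -0.0725, Aldh1a2 -0.0825, Dhrs3 -0.34 and Fabp5 -0.056. For the difference it gave Aldh1a1 0.624 and Dhrs3 0.86, and between the sexes Aldh1a1 -0.326, Aldh1a2 -0.554 and Dhrs3 -0.706. None of these passed the threshold, and the cause was not tested.

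Changes near 0 also turned. Rarg in females was -0.0025 with edgeR and -0.0405 after GC correction. Rara in males was -0.001 with edgeR, -0.122 after GC correction, -0.0228 with the block and -0.0895 with the unsettled library as dorsal. Rarb over both sexes was -0.0301 with the block and -0.0442 with that library as dorsal. Leaving out one library gave ranges across 0 for Rara (females -0.296 to 0.1, males -0.13 to 0.143, both -0.141 to 0.0471, difference -0.0904 to 0.306), Rarg (females -0.301 to 0.308, males -0.0261 to 0.677, difference -0.0685 to 0.648), Rarb over both sexes (-0.0828 to 0.203), Aldh1a3 in females (-0.0025 to 0.735), and Dhrs3 (-0.0076 to 0.981) and Rxra (-0.0223 to 0.309) in males.

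Over all genes, the female count of 4007 fell to 21 with the covariate and to 2158 at the lowest when a library was left out, that over both sexes of 2974 to 0 and 1429, and that between the sexes of 1726 to 944 with averaged numbers. The count for the difference, 431, became 804 with the block and 260 at the lowest when a library was left out. The male count of 0 became 76 with the block, 1 after GC correction and at most 12 without a library. Groups of 3 or 4 pools limit the precision of each change, and low read numbers that of Rarg.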
